A study of Mus musculus with 6 samples.

Results

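Histone acetylation is set by acetyltransferases, which write the mark, deacetylases and sirtuins, which erase it, and bromodomain proteins, which read it. Transcripts of 37 genes of this machinery were examined in naive (unstimulated) bone marrow-derived macrophages (BMDMs) with and without Acly. The 37 genes were taken by name from these families, out of 24562 gene symbols in the count table. They comprised 18 erasers, 10 writers, 4 coregulators that recruit them, 3 readers and 2 N-terminal acetyltransferases. The RNA-sequencing libraries were 3 from control and 3 from AclyM-KO BMDMs. AclyM-KO mice were C57Bl/6J mice in which exon 9 of Acly lay between loxP sites (Acly fl/fl) and in which Lyz2-Cre was expressed, so that recombination was restricted to cells that use the myeloid Lyz2 promoter. Control mice are labelled wild type, and for its transplantation experiment the study used Acly fl/fl littermates without Cre as controls. No other allele or agent is given for either group, and the mice were female by the labels, whereas the methods give both sexes for in vitro work. The study's methods describe culture of bone marrow for 7 days in medium with L929-conditioned supernatant, from mice of 8 to 14 weeks of age, and its figure legends describe expression values of this dataset as 3 technical replicates of marrow pooled from 3 mice. Each p-value, SD and n = 3 below therefore measures technical spread within 1 pool per genotype, not the spread between animals.

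Acly, ATP citrate lyase, cleaves citrate in the cytosol and nucleus and so supplies the acetyl-CoA that acetyltransferases consume. Acetyltransferases such as p300 and CBP place acetyl groups on histone lysines at enhancers and promoters, zinc-dependent histone deacetylases (HDACs) remove them inside corepressor complexes, and sirtuins remove them in a reaction that consumes NAD+. Bromodomain proteins of the BET family bind acetylated histones and recruit the machinery of transcription elongation, and in macrophages this layer is known for its part in inflammatory gene induction. RNA sequencing measures the transcripts of these enzymes, and neither their protein, their activity nor the acetyl mark was measured in these libraries.

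Acly itself had 220.4, 233 and 236 counts per 1000000 (CPM, scaled by the trimmed mean of M values, TMM) in the control libraries and 93.3, 98.9 and 98.3 CPM in the AclyM-KO libraries, a log2 fold change of -1.25 (SE 0.066, edgeR quasi-likelihood test, adjusted p = 5.58e-07). Total counts over all transcripts ran from 19327459 to 23582992 in 5 libraries and reached 44507233 in AclyM-KO replicate 2, which also stood furthest from its own group. For each gene the row with the most counts was used, and 11470 genes had enough counts to be tested, all 37 histone acetylation genes among them. A gene was called at an adjusted p of 0.05 or below, adjusted over all 11470 genes. Of the macrophage markers, 10 of 10 were tested and their summed level was 26948 to 28000 CPM in control and 17885 to 20308 CPM in AclyM-KO libraries. By edgeR 4 of them were lower (Lyz2, Mertk, Csf1r and Ctss) and 0 higher, with 1 higher at an unadjusted p under 0.05 and 1 called higher by limma-voom but 0 by DESeq2. The median log2 fold change of the 10 was -0.09, with 5 above 0 and 5 below, and the calls of Csf1r and Ctss were lost without any 1 control library, with that of Csf1r also lost without AclyM-KO replicate 3. Without Lyz2, whose promoter drives Cre, the other 9 summed to 13899 to 14164 and 12279 to 13328 CPM. Defining markers of other blood cells were at 0 in every library (Cd3e, Cd3g, Pax5, Ebf1, Fcer1a, Hba-a1) or near it, and the summed levels of the other lists were 28.7 to 32.1 CPM in control and 29.4 to 31.2 CPM in AclyM-KO libraries for neutrophil markers and at most 24.3 CPM for any of the rest. Kit accounted for most of the mast cell and basophil sum and was higher in AclyM-KO BMDMs (log2 fold change 1.07, SE 0.13, adjusted p = 0.000505).

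The histone acetylation genes as a group were close to their control level in AclyM-KO BMDMs, and 2 of them were called. Brd2, a BET bromodomain reader, was higher, and Sirt3, a mitochondrial sirtuin, was lower. The 2 calls are 5.41% of the 37 genes, while 12.3% of all tested genes were called, 6.70% higher and 5.65% lower. These were 768 genes higher and 648 lower, and scaling by total counts alone gave 919 and 508. The median log2 fold change of the 37 genes was -0.03, that of all tested genes was 0.00, and 16 of the 37 lay above 0 and 21 below. In 13 genes (35.1%) the 3 control and 3 AclyM-KO values did not overlap, with all AclyM-KO libraries above in 5 (Brd2, Kat2b, Kat7, Naa50 and Sirt1) and below in 8 (Brd3, Crebbp, Ep300, Hdac8, Kat6a, Ncoa2, Ncor1 and Sirt3). Over all tested genes the share without overlap was 32.8%, with 16.3% above and 16.6% below, so the share among the histone acetylation genes lay near the background. At an unadjusted p under 0.05 there were 9 genes (24.3%), 3 higher and 6 lower, against 27.3% of all genes, 13.9% higher and 13.3% lower.

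The 95% intervals describe the difference between the pools within technical spread, and do not bound the change between animals. In 31 of the 37 genes (83.8%) the 95% interval of the change lay wholly within 1.5-fold in either direction, which held for 69.2% of all tested genes. The 6 genes whose interval reached further were Sirt3, Hdac8, Hdac10, Sirt4, Sirt5 and Hdac11. Hdac11, Sirt5 and Sirt4 had the fewest counts of the 37 genes, while the intervals of Sirt3, Hdac8 and Hdac10 lay wholly to one side of 0. Hdac11, whose level was 1.32 CPM ± 0.63 in control libraries, against 0.99 CPM ± 0.13 in AclyM-KO libraries (SD, n = 3 each), had an interval from -1.32 to 0.37 on the log2 scale. A decrease of Hdac11 by more than 1.5-fold was therefore within its interval.

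**Figure D1:**
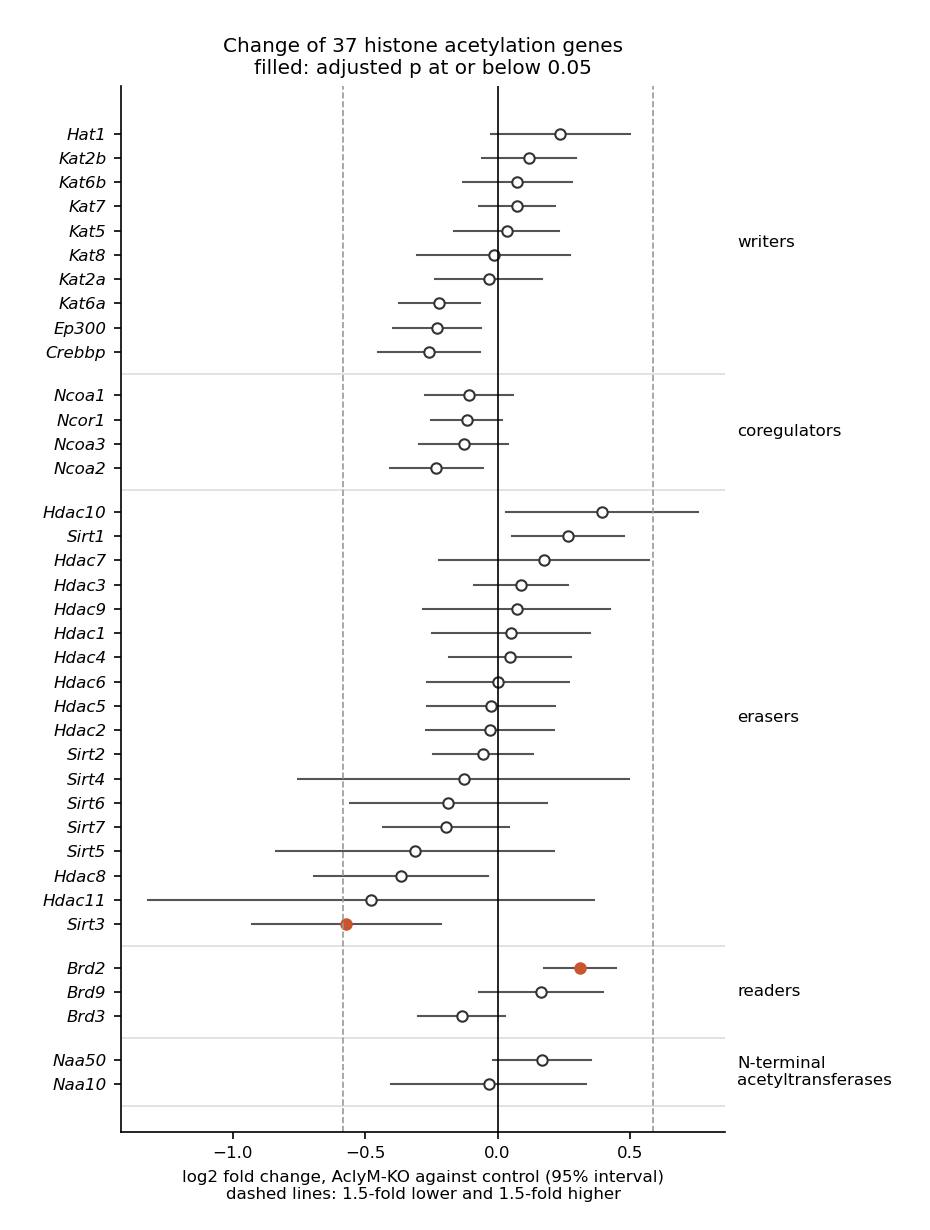
Log2 fold change of each of the 37 genes in AclyM-KO against control BMDMs (points) with its 95% interval (lines), grouped by role, filled where the adjusted p was 0.05 or below. Brd2 at 0.31 and Sirt3 at -0.57 are the filled points, and the intervals of 31 genes stay between the dashed lines at a 1.5-fold change.

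Levels were compared between genes per length, in RPKM, counts per 1000 bases of transcript and 1000000 counts of the library. Sirt2, a cytosolic sirtuin that also deacetylates histones, had the highest level in control BMDMs at 56.5 RPKM ± 1.57 (SD, n = 3), followed by Naa50 at 46.6 ± 1.81 and Brd2 at 31.1 ± 0.94. Each of these 3 stood clear of its neighbour in the order. Hdac11 had the lowest at 0.28 RPKM ± 0.13 (SD, n = 3), so that the control levels spanned 200.1-fold. Between these ends the order was blurred, since 23 of the 36 pairs of neighbours in it had overlapping control ranges.

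**Figure D2:**
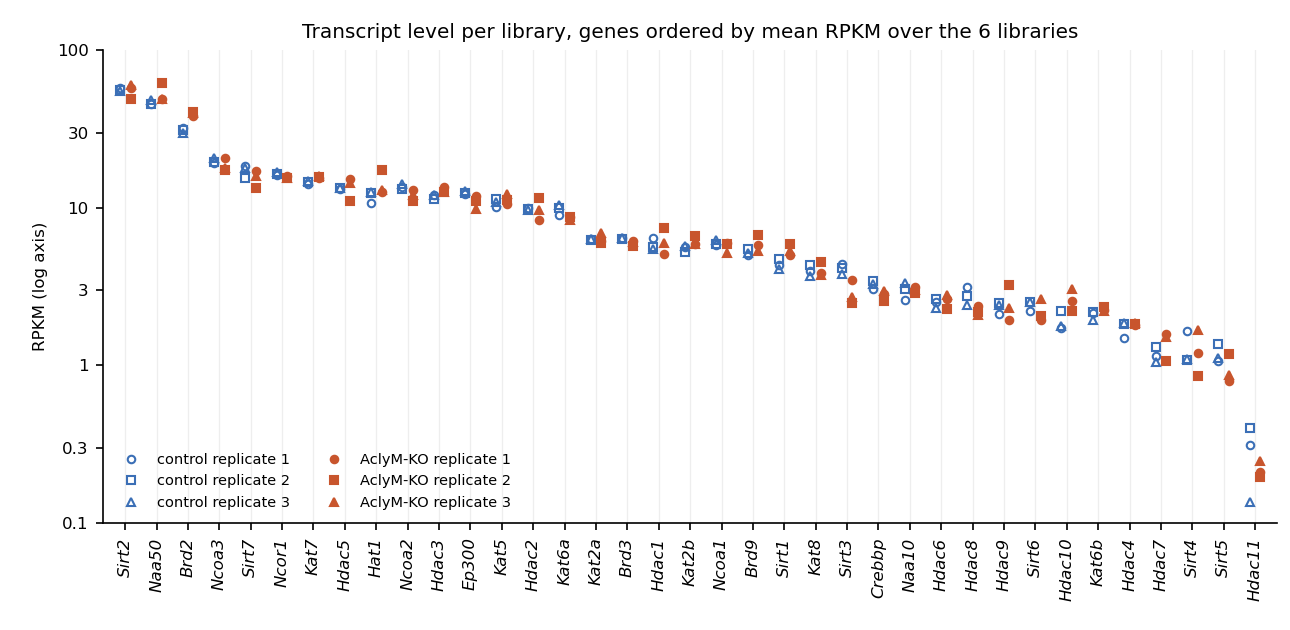
RPKM of each gene in each library on a log axis, with open blue symbols for control and filled orange symbols for AclyM-KO BMDMs, ordered by the mean over the 6 libraries. The order runs from Sirt2 near 56 RPKM to Hdac11 below 1 RPKM, and Brd2 and Sirt3 show their groups apart.

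The promoter letters are shown for the 2 called genes. Both lie head to head with, or overlap, a gene on the opposite strand, and the letters below stop where an exon of that neighbour begins, or for Sirt3, whose upstream window lies within an exon of Psmd13, are limited to 30 bases. They are RefSeq sequence of the minus strand, build GRCm38.p6, written 5′ to 3′. The Brd2 run is chr17:34122608-34122821 and ends at the base before the RefSeq start, and its capitals, from -17 to -8, spell the NRF1 consensus. The Sirt3 run is chr7:140882377-140882406, and its capitals, from -86 to -79, spell the ETS consensus CCGGAAGT read from the other strand.
Brd2: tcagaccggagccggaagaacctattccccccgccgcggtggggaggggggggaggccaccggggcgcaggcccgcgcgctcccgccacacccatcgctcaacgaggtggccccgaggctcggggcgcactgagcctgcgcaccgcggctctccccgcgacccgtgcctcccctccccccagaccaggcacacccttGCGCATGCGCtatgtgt
Sirt3: agtgctcgctcACTTCCGGcaccgcgggcg

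Promoters of 31 of the 37 genes could be matched in the RefSeq table. Each window was the 250 bases before the RefSeq start nearest to that of the counted transcript, 817 bases away for Ep300 and 593 for Crebbp. Their median GC content was 61.2% and their median count of CpG pairs was 17. Over 32817 mouse promoters, taken whether or not their genes were tested here, these were 52.4% and 6. On either strand, the GC box GGGCGG was found in 20 of the 31 (64.5%) and 32.7% of all, and CCAAT in 13 (41.9%) and 33.8%. TATAAA was found in 1 (3.23%) and 12.4%, and the E-box CACGTG in 3 (9.68%) and 6.02%. The ETS letters were found in 2 of the 31 (6.45%) and 2.88% of all, and the NRF1 letters in 1 (3.23%) and 0.78%. The E2F letters TTTCCCGC were found in 2 (6.45%) and 0.89%, and their other form TTTGGCGC in 0% and 0.42%. Neither the sterol response letters TCACNCCAC (1.05% of all promoters) nor the cAMP response letters TGACGTCA (1.55%) occurred in the 31 windows. A match of letters describes the window and is not a measured binding site.

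Of the 10 writers, 0 passed the threshold of edgeR, which 12.3% of all tested genes passed. An unadjusted p under 0.05 was reached by 3 (30%), close to the 27.3% of all tested genes, and these were Kat6a, Ep300 and Crebbp, each with a lower mean in AclyM-KO BMDMs. DESeq2 called 0 and limma-voom 2 of the 10, against 11.1% and 19.1% of all genes. Kat6a, a MYST acetyltransferase of histone H3, had 145, 161 and 165 CPM in control and 138, 133 and 133 CPM in AclyM-KO libraries. All 3 AclyM-KO values lay below the control values, with a log2 fold change of -0.22 (SE 0.070, adjusted p = 0.0614, edgeR). Ep300, which encodes p300, had 207, 211 and 213 CPM in control and 197, 179 and 162 CPM in AclyM-KO libraries (log2 fold change -0.23, SE 0.076, adjusted p = 0.0731, edgeR). Crebbp, which encodes its paralogue CBP, had 58.4, 65.6 and 61.6 CPM against 53.2, 46.9 and 55.7 CPM (log2 fold change -0.26, SE 0.088, adjusted p = 0.0767, edgeR). In both paralogues the groups did not overlap, although AclyM-KO replicate 1 of Ep300 and replicate 3 of Crebbp came close to the lowest control library. Together they reached 15.7 RPKM ± 0.39 (SD, n = 3) in control BMDMs, and 13.7 RPKM ± 1.01 after loss of Acly, with Ep300 providing most of the sum.

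These genes have long transcripts, and long transcripts as a class were shifted in the same direction. The median log2 fold change of the 1251 tested genes with transcripts over 6000 bases was -0.08, and 139 of them (11.1%) were called lower and 53 (4.24%) higher. Of the 10002 genes with transcripts up to 6000 bases, 501 (5.01%) were called lower and 699 (6.99%) higher. By the row chosen for each gene, 8 histone acetylation genes have transcripts over that length (Ep300, Crebbp, Kat6a, Kat6b, Hdac4, Ncoa1, Ncoa3 and Ncor1), and their median was -0.12. With a correction for transcript length, a setting chosen after the data were seen, the log2 fold changes by edgeR were -0.13 for Ep300 (adjusted p = 0.241), -0.14 for Crebbp (adjusted p = 0.378) and -0.13 for Kat6a (adjusted p = 0.221). Such a correction removes any shift that long transcripts share, whatever its source. The part of transcript length in these values was not tested.

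The same genes crossed the threshold under some other settings. With a correction for GC content, also chosen after the data were seen, Ep300 (adjusted p = 0.0419), Crebbp (0.0411), Kat6a (0.0357) and Ncoa2 (0.0317) joined Sirt3 among the lower genes, and 18.1% of all tested genes were called. Crebbp passed in no other setting. With limma-voom and sample weights Ep300 (adjusted p = 0.00855), Kat6a (0.0183) and Ncoa2 (0.0460) were lower and Hdac10 (0.0219) was higher, where 19.1% of all genes were called. Without AclyM-KO replicate 1, Ep300 (adjusted p = 0.0204) and Ncoa2 (0.0384) were lower beside Sirt3, where 14.2% of all genes were called. Without AclyM-KO replicate 2, Ep300 (adjusted p = 0.0212) and Kat6a (0.0206) were lower and Hdac10 (0.0180) was higher, where 18.5% of all genes were called.

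The other writers showed smaller differences, none of which was called. Kat7, the MYST acetyltransferase with the highest level, had 89.5, 91.5 and 91.6 CPM in control and 94.5, 94.2 and 97.98 CPM in AclyM-KO libraries (log2 fold change 0.07, 95% interval -0.07 to 0.22). Of the GCN5/PCAF pair, Kat2a had 34.1, 33.6 and 33.8 CPM against 32.3, 30.9 and 36.4 CPM (log2 fold change -0.03, 95% interval -0.23 to 0.17), and Kat2b had 46.2, 42.9 and 46.7 CPM against 47.4, 52.0 and 47.6 CPM (log2 fold change 0.12, 95% interval -0.06 to 0.30). In Kat7 and Kat2b all AclyM-KO values were above control, by less than the test could separate from the spread. Kat5, Kat6b and Kat8 had log2 fold changes of 0.03, 0.07 and -0.01. Hat1, the type B enzyme that acetylates newly made histone H4 before it is deposited, had 29.9, 34.8 and 34.6 CPM in control and 34.5, 45.9 and 35.7 CPM in AclyM-KO libraries (log2 fold change 0.24, SE 0.12, adjusted p = 0.228, edgeR). AclyM-KO replicate 2 alone lay clearly above the control range for Hat1.

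All 4 coregulators had lower means in AclyM-KO BMDMs. Of the 11470 tested genes 5732 had log2 fold changes below 0, as did 803 of the 1251 with transcripts over 6000 bases, among them Ncoa1, Ncoa3 and Ncor1. By edgeR 0 of the 4 were called and 1 had an unadjusted p under 0.05, against 12.3% and 27.3% of all tested genes. DESeq2 called 0 and limma-voom 1 of the 4, against 11.1% and 19.1% of all genes. The log2 fold changes of all 4 stayed below 0 in the 17 alternative settings. Ncoa2, a steroid receptor coactivator that brings p300 and CBP to nuclear receptors, had 118, 114 and 122 CPM in control and 109, 90.6 and 102 CPM in AclyM-KO libraries (log2 fold change -0.23, SE 0.080, adjusted p = 0.0832, edgeR). Its groups did not overlap. Ncoa3, the most abundant coactivator per length, had 257, 261 and 271 CPM against 267, 221 and 234 CPM (log2 fold change -0.13, 95% interval -0.30 to 0.04), and Ncoa1 had a log2 fold change of -0.11 (95% interval -0.27 to 0.06). Ncor1, the corepressor that docks HDAC3 on unliganded nuclear receptors, had 253, 256 and 262 CPM in control and 242, 231 and 238 CPM in AclyM-KO libraries (log2 fold change -0.12, SE 0.061, adjusted p = 0.245, edgeR). The Ncor1 values were tight and did not overlap. With the length correction its log2 fold change was -0.03, and that of Ncoa2 was -0.22 (adjusted p = 0.0911). The value of Ncoa2 rests on the length of its chosen row, 4897 bases, while its other row, of 8171 bases, had 8737 counts against 8998 over the 6 libraries.

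**Figure D3:**
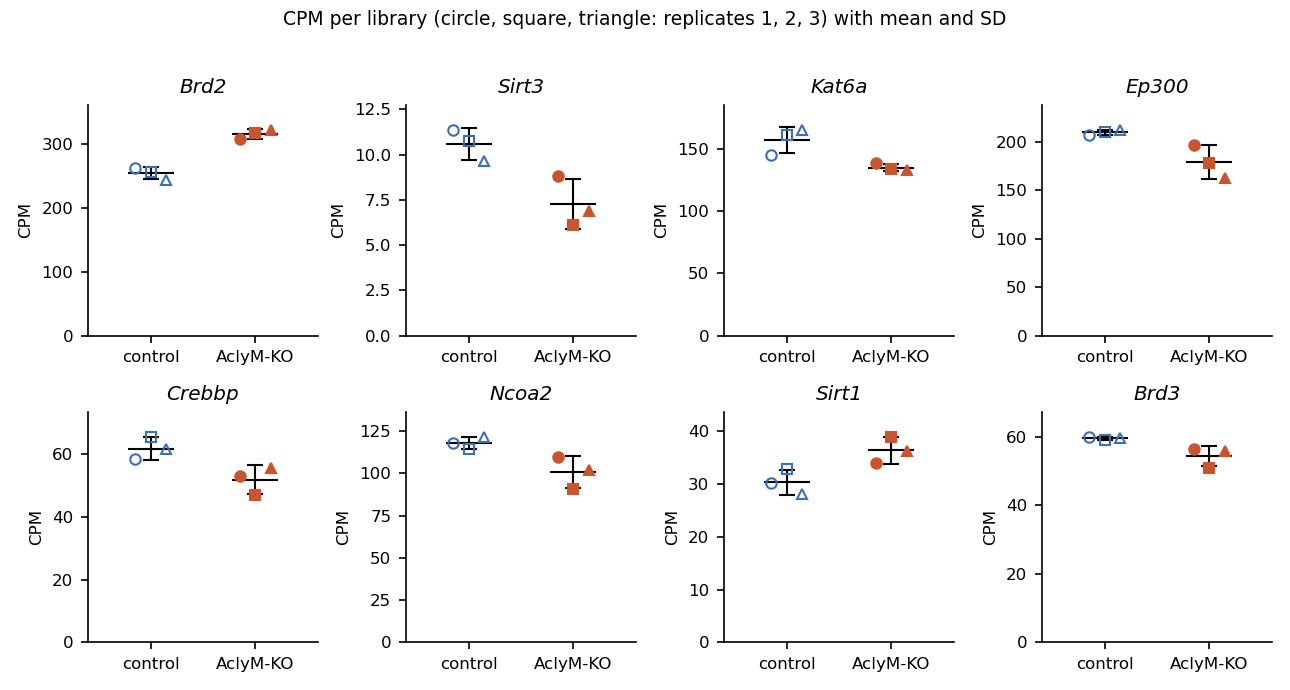
CPM per library of 8 of the 13 histone acetylation genes whose control (open) and AclyM-KO (filled) values do not overlap, with mean and SD as bars and axes from 0. Brd2 and Sirt1 lie higher and the other 6 lower in AclyM-KO BMDMs, and of the 8 only Brd2 and Sirt3 were called. Not shown are Kat2b, Kat7 and Naa50, which lie higher, and Hdac8 and Ncor1, which lie lower. Of all 13, 5 lie higher and 8 lower.

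Of the 11 zinc-dependent deacetylases, 0 were called and 2 had an unadjusted p under 0.05 by edgeR, against 12.3% and 27.3% of all tested genes. Their smallest adjusted p by edgeR was 0.140. DESeq2 called 0 and limma-voom 1 of the 11, against 11.1% and 19.1% of all genes. Of class I, which works in the nuclear corepressor complexes, Hdac3 had the highest level per length, with 43.1, 41.0 and 42.9 CPM in control and 47.6, 42.9 and 44.6 CPM in AclyM-KO libraries (log2 fold change 0.09, 95% interval -0.09 to 0.26). Hdac1 and Hdac2, the interchangeable catalytic subunits of the Sin3, NuRD and CoREST complexes, had log2 fold changes of 0.05 (95% interval -0.25 to 0.35) and -0.03 (95% interval -0.27 to 0.21). The ratio of their RPKM was 0.59 ± 0.05 in control libraries, against 0.62 ± 0.02 in AclyM-KO libraries (SD, n = 3 each, 2-sided exact permutation test, p = 0.4, where 0.1 is the smallest p that 3 against 3 libraries allow). Hdac8, the class I enzyme that deacetylates cohesin, had 10.7, 9.42 and 8.21 CPM in control and 8.01, 7.10 and 6.98 CPM in AclyM-KO libraries. The groups did not overlap but nearly touched, and the log2 fold change was -0.36 (SE 0.15, adjusted p = 0.140, edgeR). The 2 RefSeq transcripts of Hdac8 differed, with log2 fold changes of -0.36 for the chosen row and -0.04 for the row with fewer counts.

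The class IIa enzymes act mainly as scaffolds and shuttle between nucleus and cytoplasm. Hdac5, the highest of them, had 99.2, 101 and 100.1 CPM in control and 112, 79.2 and 106 CPM in AclyM-KO libraries (log2 fold change -0.02, 95% interval -0.27 to 0.22). Hdac7 had 8.55, 9.72 and 7.76 CPM against 11.5, 7.56 and 11.1 CPM (log2 fold change 0.17, 95% interval -0.22 to 0.57). In both genes AclyM-KO replicate 2 was the lowest of all 6 libraries, and the other 2 AclyM-KO libraries were above every control library. Hdac4 and Hdac9 had log2 fold changes of 0.05 and 0.07. Of class IIb, Hdac6, a cytoplasmic tubulin deacetylase, had 18.6, 19.2 and 16.7 CPM in control and 18.98, 15.9 and 20.2 CPM in AclyM-KO libraries (log2 fold change 0.00, 95% interval -0.27 to 0.27). Hdac10, a polyamine deacetylase, had 8.09, 10.3 and 8.21 CPM against 11.8, 9.82 and 14.05 CPM (log2 fold change 0.39, SE 0.17, adjusted p = 0.151, edgeR), and its row with the most counts was a non-coding RefSeq transcript. Its 4 rows had log2 fold changes from 0.39 to 0.46. Hdac11, the class IV enzyme, was covered by 16, 25 and 7 reads in the control libraries, against 11, 23 and 13 in AclyM-KO libraries.

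Of the 7 sirtuins, Sirt3 was called. Sirt3 deacetylates metabolic enzymes in the mitochondrial matrix. It had 11.4, 10.8 and 9.65 CPM in control and 8.79, 6.08 and 6.89 CPM in AclyM-KO libraries, from 107 to 144 and 79 to 161 counts. All AclyM-KO libraries were below all control libraries, with a log2 fold change of -0.57 (SE 0.16, 95% interval -0.93 to -0.21, adjusted p = 0.0414, edgeR). Its transcript fell by 32.7%, with an interval from -47.5% to -13.8%. In bulk RNA, fewer transcripts in each cell and fewer cells that carry the transcript cannot be told apart.

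The Sirt3 call lay close to the threshold. The direction held in all 17 alternative settings, with log2 fold changes from -0.73 to -0.43, but the call held in 10 of them. The adjusted p was 0.161 without control replicate 1, 0.135 without control replicate 2, 0.0846 without control replicate 3, 0.0641 without AclyM-KO replicate 2 and 0.0952 without AclyM-KO replicate 3, 0.0554 with AclyM-KO replicate 2 thinned to the depth of the others, and 0.0501 by DESeq2, which called 11.1% of all genes. Sirt3 (chr7:140863666-140882309, minus strand, GRCm38) shares exon bases on the opposite strand with Ric8a (6.998% of its exon bases) and Psmd13 (5.73%), and the counting ran with default settings of HOMER2, whose strand option is not spelled out in the sources used here. For Ric8a, a chaperone of G proteins, the log2 fold change was 0.02 (adjusted p = 0.935), and Psmd13, a proteasome subunit that starts head to head with Sirt3, one of 0.22 (SE 0.069, adjusted p = 0.0578). The part of reads from these neighbours in the Sirt3 values was not tested.

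Sirt1, the nuclear sirtuin that deacetylates histones and transcription factors, had values in the opposite direction to Sirt3. It had 30.1, 32.7 and 28.1 CPM in control and 33.9, 38.9 and 36.3 CPM in AclyM-KO libraries, without overlap, and was not called (log2 fold change 0.27, SE 0.096, adjusted p = 0.0954, edgeR). Sirt2 had 189, 183 and 177 CPM against 184, 153 and 192 CPM (log2 fold change -0.06, 95% interval -0.24 to 0.13). Sirt6 and Sirt7, nuclear sirtuins of telomeric chromatin and the nucleolus, had log2 fold changes of -0.19 (95% interval -0.56 to 0.19) and -0.19 (95% interval -0.43 to 0.04). The mitochondrial Sirt4 and Sirt5 were counted at 3.71 CPM ± 0.97 and 2.90 ± 0.40 (SD, n = 3) in control BMDMs, and their intervals, -0.75 to 0.49 and -0.84 to 0.21, left changes of more than 1.5-fold possible.

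Of the readers, Brd2 was higher in AclyM-KO BMDMs. Brd2 binds acetylated histone H4 through paired bromodomains. It had 263, 256 and 244 CPM in control and 308, 318 and 322 CPM in AclyM-KO libraries, from 2710 to 3426 and 3533 to 8411 counts, and the groups were well apart. The log2 fold change was 0.31 (SE 0.063, 95% interval 0.17 to 0.45, adjusted p = 0.00807, edgeR), a rise to 1.241 times the control level. The call held in 16 of 17 alternative settings, with log2 fold changes from 0.28 to 0.35, and was lost without control replicate 3 (adjusted p = 0.0698).

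Brd2 (chr17:34112023-34122634, minus strand, GRCm38) lies in the major histocompatibility complex beside H2-DMa, a class II chaperone on the opposite strand that shares 4.6% of its exon bases. H2-DMa was lower in AclyM-KO BMDMs, with 25.1, 24.1 and 23.1 CPM in control and 16.0, 12.5 and 14.8 CPM in AclyM-KO libraries (log2 fold change -0.75, SE 0.12, adjusted p = 0.00205, edgeR). An antisense gene, CR974462.3, shares 5.18% of the exon bases of Brd2 and had no count of its own here. The part of reads from both genes in the Brd2 values was not tested. The other readers were not called. Brd3, the BET paralogue of Brd2, had 60.02, 59.2 and 59.7 CPM in control and 56.4, 50.9 and 55.9 CPM in AclyM-KO libraries (log2 fold change -0.14, SE 0.076, adjusted p = 0.278, edgeR), without overlap. Brd9, a reader in a SWI/SNF remodelling complex, had a log2 fold change of 0.16 (95% interval -0.07 to 0.40). The RPKM of Brd2 was 4.85 ± 0.17 times that of Brd3 in control and 6.61 ± 0.45 times in AclyM-KO libraries (SD, n = 3 each), a description that follows from the opposite directions of the 2 genes. Summed over the 3 readers, RPKM reached 42.7 ± 0.88 in control BMDMs, against 51.6 ± 1.36 in AclyM-KO BMDMs (SD, n = 3 each), most of it Brd2.

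The 2 N-terminal acetyltransferases, which acetylate the first residue of newly made proteins, had 0 calls by edgeR, DESeq2 and limma-voom, and 0 unadjusted p under 0.05. Of all genes, these tools called 12.3%, 11.1% and 19.1%, and 27.3% had such an unadjusted p by edgeR. Naa50 had 287, 285 and 302 CPM in control and 303, 373 and 304 CPM in AclyM-KO libraries (log2 fold change 0.17, SE 0.084, adjusted p = 0.225, edgeR). The 3 AclyM-KO values were above control, but only replicate 2 by more than a few CPM. Naa10, the catalytic subunit of the NatA complex, had a log2 fold change of -0.03 (95% interval -0.40 to 0.33), and 11.6% of its exon bases overlap Arhgap4 on the same strand.

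The partners with which these enzymes assemble were examined in 4 lists of 140 genes, 136 of which were tested. Of these, 4 were higher and 7 lower, together 8.09%, below the 12.3% of all tested genes. In the lists the calls fell on 2 higher and 4 lower of 39 subunits of the HDAC1/2 and HDAC3 complexes, 2 higher and 1 lower of 57 subunits of acetyltransferase complexes, 0 higher and 2 lower of 30 other acetyl-lysine readers, and 0 of 10 other N-terminal acetyltransferase subunits. At an unadjusted p under 0.05 by edgeR were 36 of the 136 partners (26.5%), 13 higher and 23 lower, against 27.3% of all tested genes, 13.9% higher and 13.3% lower. By list these were 3 higher and 7 lower HDAC complex subunits, 8 higher and 6 lower acetyltransferase complex subunits, and 2 higher and 10 lower other readers. DESeq2 called 1 higher and 4 lower, 0 higher and 1 lower, and 1 higher and 2 lower in these 3 lists, and limma-voom, which called 19.1% of all genes, called 3 higher and 6 lower, 6 higher and 3 lower, and 1 higher and 8 lower. The N-terminal subunits had 0 at an unadjusted p under 0.05 by edgeR and 0 calls by DESeq2 and limma-voom.

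Chd3, a remodelling ATPase of the NuRD deacetylase complex, had 167, 161 and 160.4 CPM in control and 115, 97.6 and 112 CPM in AclyM-KO libraries (log2 fold change -0.59, SE 0.076, adjusted p = 0.000698, edgeR). It had the smallest adjusted p of the partners and was called in all 17 alternative settings. Its paralogue Chd4 was also lower (log2 fold change -0.22, adjusted p = 0.0404), as were Arid4a of the Sin3 complex (-0.29, adjusted p = 0.0182) and Phf21a of the CoREST complex (-0.45, adjusted p = 0.0197). The histone-binding subunit Rbbp7, with 86.9, 90.2 and 92.7 CPM in control and 100.3, 131 and 113 CPM in AclyM-KO libraries, was higher (log2 fold change 0.36, SE 0.094, adjusted p = 0.0299, edgeR), and so was Mier3, a scaffold for HDAC1 and HDAC2 (0.39, adjusted p = 0.0393). Among acetyltransferase partners, Jade2, a scaffold of the Kat7 complex, was lower (-0.43, SE 0.091, adjusted p = 0.0103, edgeR), while its paralogue Jade3 (0.44, adjusted p = 0.0490) and Epc2 of the Tip60 complex (0.29, adjusted p = 0.0371) were higher. Of the other readers, Kmt2a, a histone H3 lysine methyltransferase with a bromodomain, had 130, 153 and 166 CPM in control and 118, 107 and 95.4 CPM in AclyM-KO libraries (-0.48, SE 0.0997, adjusted p = 0.00912, edgeR), and Baz2a of the nucleolar remodelling complex was also lower (-0.31, adjusted p = 0.0365). Leaving out 1 library ended all of these calls but that of Chd3. Those of Jade2 (adjusted p = 0.0594) and Kmt2a (0.0578) were lost without control replicate 3. The calls of the other 8 genes were lost without any 1 of the 3 control libraries, those of Chd4, Rbbp7, Epc2, Baz2a and Mier3 also without AclyM-KO replicate 3, and those of Jade3 and Mier3 also without AclyM-KO replicate 1. The adjusted p in these losses ran from 0.0528 for Phf21a to 0.197 for Chd4. DESeq2 ended the calls of Jade3 (adjusted p = 0.0977), Epc2 (0.0644) and Mier3 (0.0597), and the replicate block those of Epc2 (0.0530) and Chd4 (0.0528). Scaling by total counts ended those of Chd4 (0.0838) and Baz2a (0.0518), the length correction that of Baz2a (0.105), and thinning of AclyM-KO replicate 2 those of Mier3 (0.182) and Epc2 (0.0518). The other readers had a median log2 fold change of -0.11, and in 11 of 30 (36.7%) all AclyM-KO values lay below control, against 16.6% of all tested genes and 27.7% of those with transcripts over 6000 bases.

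**Figure D4:**
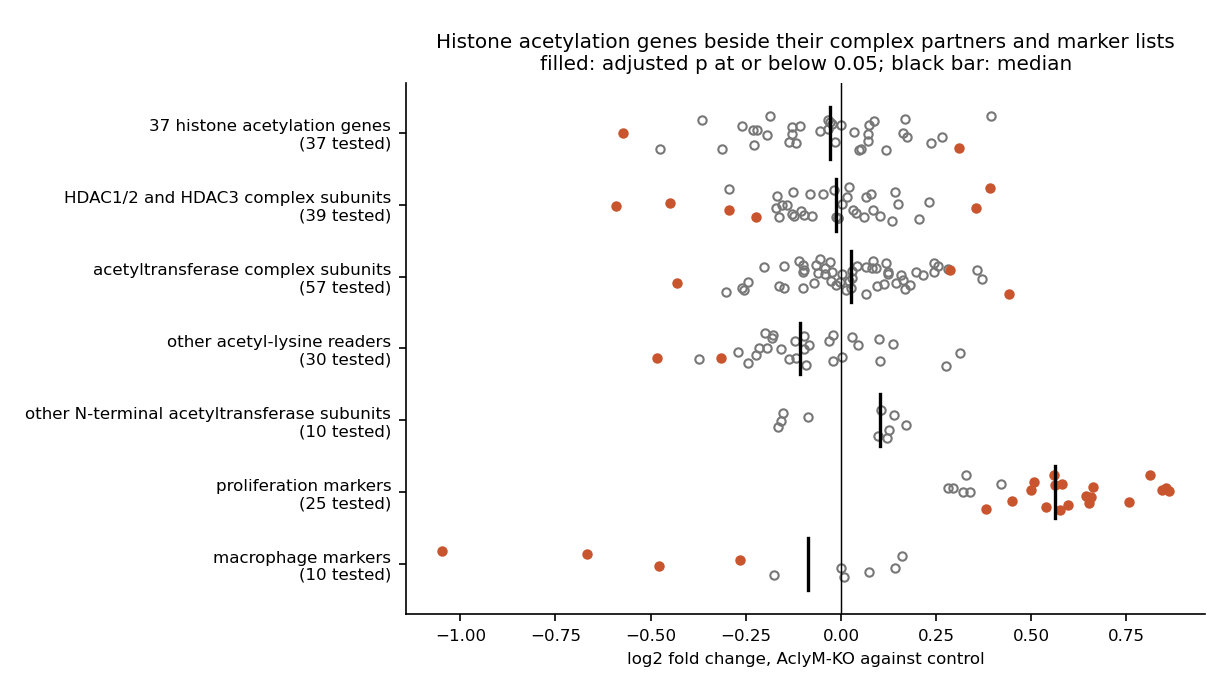
Log2 fold change of each tested gene of the 37 histone acetylation genes, the 4 partner lists, 25 proliferation markers and 10 macrophage markers, filled where the adjusted p was 0.05 or below, with the median as a black bar. The histone acetylation genes and partners centre near 0, while the proliferation markers lie wholly above 0 with a median of 0.56.

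Proliferation markers moved with genotype and differed between the AclyM-KO libraries. Of 25 markers, 19 were higher and 0 lower by edgeR, with 0 lower also at an unadjusted p under 0.05 and by DESeq2 and limma-voom, and their median log2 fold change was 0.56. Mki67, the antigen of cycling cells, had 145, 167 and 194 CPM in control and 215, 318 and 231 CPM in AclyM-KO libraries (log2 fold change 0.60, SE 0.14, adjusted p = 0.0170, edgeR), a call lost without control replicate 1 (adjusted p = 0.089) or 2 (0.0696). Centred on the mean of the 6 libraries, their log2 level averaged -0.33, -0.28 and -0.18 in the control libraries, against 0.09, 0.51 and 0.19 in AclyM-KO libraries, so that replicate 2 was highest, as it was for 24 of the 25 markers. Of the histone acetylation genes, 9 (24.3%) had their highest value of all 6 libraries in replicate 2 (Hdac1, Hdac2, Hdac9, Sirt1, Kat2b, Kat6b, Hat1, Brd9 and Naa50) and 13 (35.1%) their lowest, against 28.7% and 27.0% of all tested genes. Replicate 2 was the highest of the AclyM-KO libraries for 11 of the 37 histone acetylation genes and the lowest for 19, together 81.1%, and was an outer value for 79.9% of all tested genes. The part of proliferation and of this library in the values of the histone acetylation genes was not tested. Without replicate 2, Brd2 remained called (log2 fold change 0.31, adjusted p = 0.000260) and Sirt3 did not (-0.43, adjusted p = 0.0641).

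Each RefSeq transcript was also counted by itself. The 37 genes had 81 transcript rows, and 23 genes had more than 1 row. Many rows of a gene had nearly the same counts, as the 3 of Brd2 did (24668, 24647 and 24540), and cannot be read as independent. Others held far fewer than the chosen row, as for Hdac8 (314 against 695). How many reads the rows share was not measured. In a fit over all 18933 tested transcripts, 12.9% of which were called, 6 rows of these genes were called, the 3 rows of Brd2 and the 3 rows of Sirt3. The rows of a gene differed most for Hdac8, as given above, and next for Hdac9, with 0.08 and -0.08.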

How the data were processed

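RNA of naive BMDMs from 3 control and 3 AclyM-KO samples was sequenced as strand-specific libraries (KAPA mRNA HyperPrep). According to the study's methods STAR 2.5.2b aligned the reads to mm10, SAMtools 1.3.1 kept alignments whose mapping quality exceeded 15, and HOMER2 summed them with its defaults. CASAVA 1.8.2 is also named in the submitters' processing notes. The deposited values are raw read counts per RefSeq transcript, without normalization, in 1 column per library, from technical replicates of pooled marrow. What those defaults set for strand is not spelled out in the sources used here. Of the 12 columns of values, 6 match a labelled sample and were used, and 6 match none and were not used.

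The 35745 transcripts carried 24562 gene symbols (RefSeq and GENCODE M21 names, with 117 transcripts unmatched), and the row with the most counts stood for each gene. Genes were filtered with filterByExpr and tested with edgeR 4.0.16 (TMM, glmQLFit, glmQLFTest, R 4.3.3) on genotype over all 6 libraries, with Benjamini-Hochberg adjustment over all tested genes. Standard errors and 95% intervals follow from the F statistic. RPKM used the GENCODE M21 transcript length and the total over all transcripts. The ratio of Hdac1 to Hdac2 was compared by an exact permutation test. The common coefficient of variation between replicate libraries, from edgeR's dispersion, was 8.90%. Alternatives were DESeq2 1.42.0, limma-voom (limma 3.58.1), other size factors and filters, a replicate block, thinning of AclyM-KO replicate 2 to 11386212 counts, omission of each library and, added after the data were seen, corrections for transcript length and GC content. The 37 genes are called members here. Named in the text are all called members, the highest and the most changed member of each class, up to 3 called partners per list and direction without overlap, Acly and Mki67, and other genes were named after their values were seen. The members and lists were chosen with earlier results of these data known.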

Additional observations from a re-analysis of the deposited data

How the results depend on the processing

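Of 17 alternative settings for single genes, Brd2 was called in 16 and Sirt3 in 10. Of the 37 histone acetylation genes (members here), 25 kept their sign in every setting that gave a value and 12, all uncalled, reversed in at least 1. Counts of called genes that moved by more than 1.5 times were as follows. DESeq2 called 0 members lower and 2 partners higher. Scaling by total counts called 7 partners higher and turned the split of all calls from 768 higher and 648 lower (54.2% higher) to 919 and 508 (64.4%). Limma-voom called 2 members higher and 4 lower, 10 partners higher and 17 lower, and 1077 of all genes lower. With AclyM-KO replicate 2 thinned, 0 members were lower and 2 partners higher. The GC correction called 5 members lower, 9 partners higher, 11 partners lower. An adjusted p of 0.01 left 0 members lower, 0 partners higher, 2 partners lower, 12 proliferation markers and 343 of all genes higher, and 214 of all genes lower. Requiring a 1.5-fold change left 0 members higher, 0 members lower, 0 partners higher, 1 partner lower, 10 proliferation markers higher, and 378 higher and 182 lower of all genes. Leaving out 1 library gave 0 to 2 members higher, 0 to 3 lower, 0 to 10 partners higher, 1 to 15 lower, 10 to 23 proliferation markers higher, and 363 to 1105 higher and 235 to 1031 lower of all genes. The cause of these shifts was not tested, except that the stricter thresholds pass fewer genes by construction.

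Reversed log2 fold changes were, by limma-voom, -0.037 for Hdac1, 0.073 for Hdac5, -0.082 for Hdac9, 0.022 for Sirt2, 0.11 for Sirt4, 0.016 for Kat2a and 0.0010 for Naa10. By total counts they were 0.0084 for Hdac2, 0.0095 for Hdac5, 0.0010 for Kat2a, 0.023 for Kat8 and 0.0028 for Naa10. With replicate 2 thinned they were 0.00090 for Kat2a, 0.014 for Kat8 and 0.0063 for Naa10. Hdac6 reversed to -0.0030 without a filter, to -0.0012 when replicate numbers were blocked and to -0.0089 with the transcript of highest mean RPKM, and Kat8 to 0.0011 under the GC correction. Leaving out 1 library, log2 fold changes that reversed ranged from -0.10 to 0.16 for Hdac1, from -0.15 to 0.068 for Hdac2, from -0.044 to 0.094 for Hdac4, from -0.12 to 0.12 for Hdac5, from -0.075 to 0.11 for Hdac6, from -0.16 to 0.21 for Hdac9, from -0.10 to 0.023 for Kat2a, from -0.034 to 0.072 for Kat5, from -0.10 to 0.051 for Kat8, from -0.12 to 0.037 for Naa10, from -0.12 to 0.044 for Sirt2, from -0.067 to 0.14 for Ric8a and from -0.41 to 0.16 for Sirt4.

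Deviations of same-numbered libraries from their group means correlated at 0.09, 0.11 and -0.05, and those of differently numbered libraries at -0.13 to 0.07. Deviations from a group mean constrain each other, so these values cannot decide whether the replicate numbers pair the libraries. With the replicate block 862 genes were higher and 721 lower, with 1 member in each direction as without it. Hdac11, Sirt4 and Sirt5, the members with the fewest counts, had the widest intervals. Chd4 had no value under the length and GC corrections, since its row matched no transcript length.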
